A study of Mus musculus with 2 samples.

Results

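Epsti1-low mature dendritic cells (DC) of the mouse lung are described here: cells with transcripts of both Ccr7 and Fscn1, the hallmarks of DC that have matured and are preparing to leave the tissue, and with little RNA of Epsti1, an interferon-inducible gene. They were selected on measured values, as barcodes with at least 500 genes, at least 1000 unique molecular identifiers (UMIs, each standing for 1 captured transcript) and at most 10% mitochondrial UMIs that held at least 1 UMI of Ccr7, at least 2 of Fscn1, and Epsti1 below 0.2% of their UMIs. This gate held 429 of 14710 barcodes, of which 12968 met the limits on genes, UMIs and mitochondrial RNA, and 1140 of these had the Ccr7 and Fscn1 UMIs. The remaining 711 of the 1140, with Epsti1 at or above the limit, are called Epsti1-high here. All cells came from zbtb46-cre x rosa26-yfp mice, in which Cre driven by Zbtb46, a transcription factor of classical DC, switches on YFP permanently, so that descendants of any cell that once expressed Zbtb46 stay marked. Live CD45.2+ YFP+ lung cells were sorted from neonates of 7 days and adults of 8 weeks, untreated as far as the labels say. Each age had 2 pools of at least 5 mice, prepared separately, so n = 2 per age throughout. Neonatal pools 1 and 2 gave 136 and 150 gated cells, and adult pools 1 and 2 gave 74 and 69.

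When a DC takes up antigen or senses danger, it stops sampling its surroundings, switches on the chemokine receptor CCR7 and the actin-bundling protein fascin, and travels through lymph to the draining node to meet T cells. Mature DC of this kind make chemokines such as CCL22 and CCL17, which attract T cells through CCR4, display peptide on MHC class II together with costimulatory molecules, and can make retinoic acid through ALDH1A2. NF-kB proteins, above all RelB, are known to drive much of this programme.

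**Figure D1:**
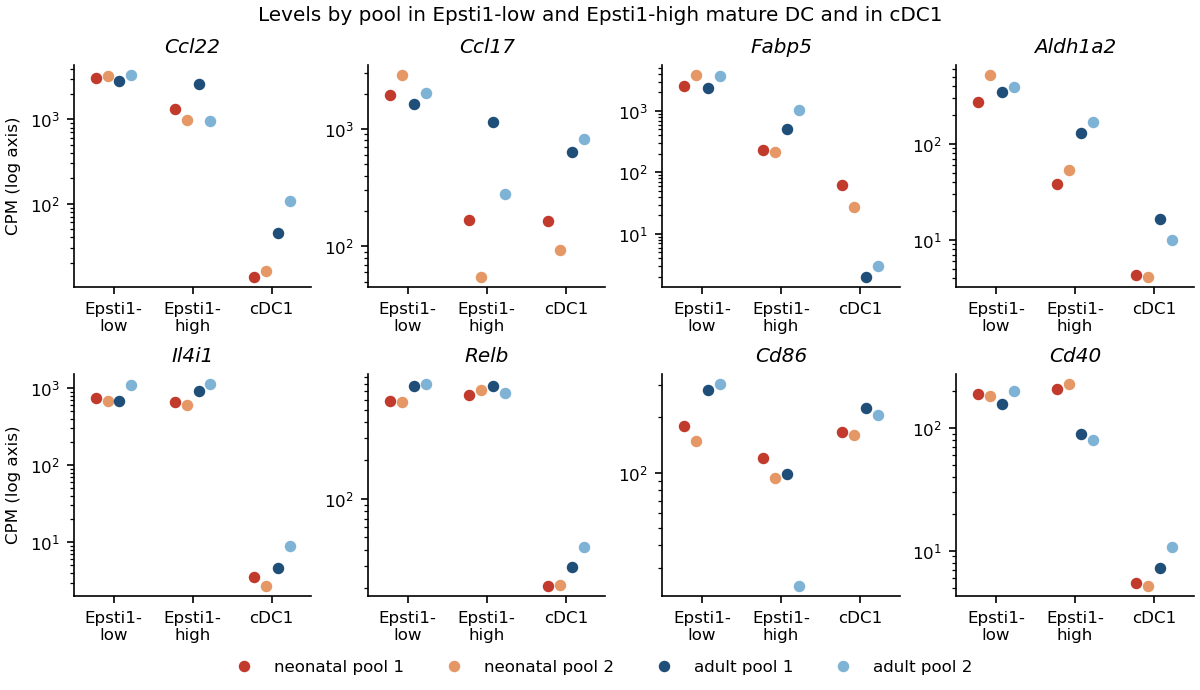
CPM (UMIs of a gene over all UMIs of the summed cells, scaled in the usual way) of 8 genes on log axes, 1 point per pool, in Epsti1-low mature DC, Epsti1-high mature DC and cDC1-gated cells. Ccl22 lies between 2818 and 3326 CPM in all 4 Epsti1-low sums and between 13.5 and 107 CPM in cDC1.

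The label was checked against the 13 markers of mature DC other than Ccr7 and Fscn1, on which the cells were selected. Their summed level was 9415, 9062, 9319 and 10299 CPM, in the order neonatal pool 1, neonatal pool 2, adult pool 1 and adult pool 2, which is used for all values below. Ccl22 stood at 3133, 3254, 2818 and 3326 CPM, against 13.5, 15.8, 44.4 and 107 CPM in cDC1-gated cells of the same pools (Xcr1 and Clec9a present, Ccr7 and Fscn1 absent), which are resting type 1 DC. The 13 markers summed to 124, 128, 186 and 252 CPM in those cells. Il4i1, a secreted amino acid oxidase that restrains T cells, stood at 753, 675, 688 and 1086 CPM. Of the receptors of resting type 1 DC, Xcr1 was found in 2.9%, 4.7%, 1.4% and 1.4% of gated cells. Clec9a was found in 8.1%, 2.0%, 2.7% and 1.4%. Sirpa, a receptor of type 2 DC and of monocytes, was found in 23.5%, 26.7%, 13.5% and 15.9%, against 6.25%, 6.49%, 1.68% and 0.86% of cDC1. Other type 2 DC markers did not share this. Mgl2 was found in 2.9%, 4.7%, 0% and 0% of gated cells, against 11.3%, 9.9%, 3.9% and 6.9% of cDC1. Cd209a was found in 0%, 3.3%, 1.4% and 0%, against 1.0%, 1.6%, 7.8% and 5.2% of cDC1. These shares were compared with no test, and free RNA can add single UMIs to any cell. Median depth was 4320, 4239, 6252.5 and 6953 UMIs per cell. Both adult medians lay above both neonatal ones.

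**Figure D2:**
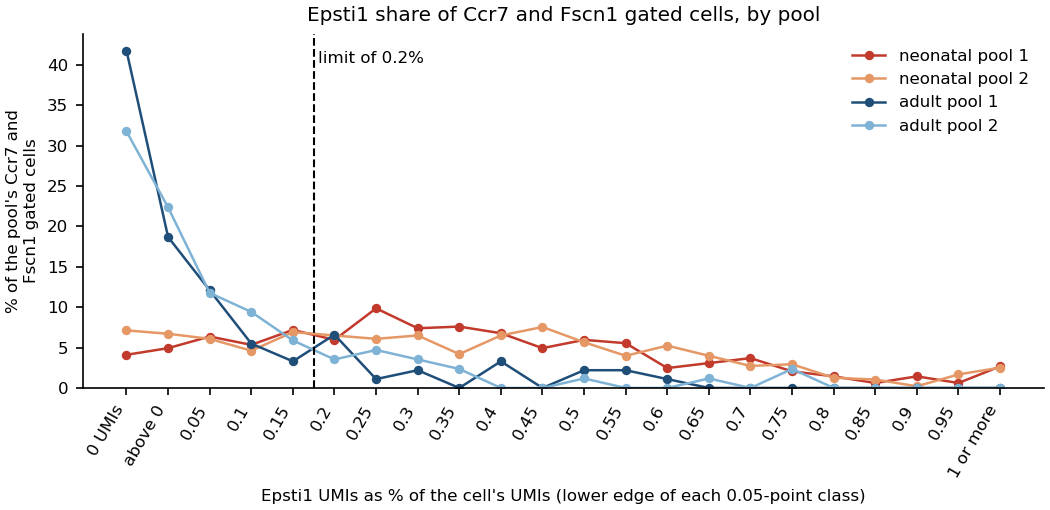
Percent of each pool's Ccr7 and Fscn1 gated cells (y axis) by the Epsti1 share of the cell's UMIs (x axis, classes of 0.05 points), with the limit of 0.2% dashed. Adult pools peak at 0 UMIs, while neonatal pools spread evenly across the limit.

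The Epsti1 limit set apart most mature DC in adults but ran through the middle of a continuous spread in neonates. Cells with 0 Epsti1 UMIs made up 20, 34, 38 and 27 of the gated cells. In the class just inside the limit, from 0.15% to 0.2%, there were 35 and 33 neonatal cells and 3 and 5 adult cells. Just outside it, from 0.2% to 0.25%, there were 29 and 31 neonatal cells and 6 and 3 adult cells. On this measure alone, the neonatal gate is therefore a range of a continuous spread. Whether its cells form a separate type was not tested. On the other limits, 18 neonatal and 5 adult gated cells had exactly 1 Ccr7 UMI, and 31 and 3 had exactly 2 Fscn1 UMIs. Just outside, 30 neonatal and 3 adult cells missed by having no Ccr7 UMI, and 44 and 12 by having 1 Fscn1 UMI.

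Epsti1-low cells made up a similar share of the sort at both ages and a very different share of mature DC. Of barcodes kept, they were 3.01%, 3.31%, 3.61% and 3.69%, with exact binomial 95% intervals of 2.53 to 3.55%, 2.81 to 3.87%, 2.84 to 4.51% and 2.89 to 4.65%. Both adult pools lay above both neonatal pools by a mean of 0.491 percentage points, a difference within these counting intervals. Of Ccr7 and Fscn1 gated cells, Epsti1-low cells were 27.9%, 31.4%, 81.3% and 81.2%, so that Epsti1-high cells were rare in adults. The adult share was 51.6 percentage points higher. For both shares the two-sided exact permutation test gave p = 0.33, the smallest that 2 against 2 pools allow. With each cell thinned to 2000 UMIs and the gate read anew, the adult share of barcodes was higher by 1.21 points. With Epsti1 below 0.1% it was higher by 1.23 points, at 1.66%, 2.10%, 3.22% and 3.00%. With 0 Epsti1 UMIs the shares were 0.44%, 0.75%, 1.85% and 1.45%, so the similarity depends on the limit. The share of Ccr7 and Fscn1 gated cells comes from the measure that defines the gate and is a description.

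Age was not the single thing that separated the pools. Both pools of an age were hashtagged, joined and loaded in 1 channel. The inactive X marker Xist stood at 827 and 920 CPM in neonatal gated cells and at 0 in both adult sums, while Ddx3y, from the Y chromosome, was at 0, 5.48, 98.6 and 72.3 CPM. Age, channel and sex therefore cannot be told apart here. Predicted doublets were 11, 7, 0 and 0 of the gated cells, and no gated cell carried a mixed hashtag. No barcode was shared within the gate between pools, and 1 gated cell shared its barcode with any other pool. UMIs summed over the gate came to 632303, 730088, 466589 and 484339. In such sums, fewer expressing cells and less RNA per cell cannot be told apart.

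Between ages, 518 of 5399 genes tested in the summed gate were called (edgeR's quasi-likelihood test, Benjamini-Hochberg adjusted p under 0.05), which is 9.59%. Of these, 218 were higher in neonatal cells (4.04% of genes tested) and 300 in adult cells (5.56%). With a 2-fold limit, 152 and 127 of them remained. The shares of 4.04% and 5.56% are the background for the list counts of this gate given below. The ages did not overlap for 53.4% of all genes tested, with neonatal pools on top for 35.2% and adult pools on top for 18.2%, so a gap between ages is common. The median log2 fold change over all genes tested was 0.0035, and a log2 value below 0 stands for a gene higher in adult cells. DESeq2 called 216 genes (4% of genes tested), 62 higher in neonatal (1.15%) and 154 in adult cells (2.85%), of which 213 were among edgeR's calls in the same direction. Leaving out either neonatal pool left 0 calls, with 646 and 704 genes at an unadjusted p under 0.05 against 1256 with all pools. With 1 pool as the lone neonatal sum, its spread is assumed to be that of the adult pools.

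Of the whole list of 15 mature DC markers, Ccr7 and Fscn1 included, 13 were tested. Of these, 3 were called higher in adult cells and 0 in neonatal cells, with a median of -0.09 and 3 values above 0. The called ones were Apol7c (-0.72, edgeR adjusted p = 0.000971), Relb and Tmem123. Ccl22 differed by a log2 of -0.09 ± 0.10 (standard error) between ages, with an adjusted p of 0.686 by edgeR. Ccl17, the companion ligand of CCR4, stood at 1964, 2861, 1618 and 2036 CPM. Fabp5, a carrier that brings fatty acids and retinoic acid to nuclear receptors, stood at 2527, 3804, 2325 and 3766 CPM. Aldh1a2, which makes retinoic acid, stood at 272, 519, 347 and 392 CPM. In CPM the ages overlapped for each of these 4 genes, and none was called. Zbtb46 itself stood at 77.5, 57.5, 101 and 76.4 CPM and was not called either (edgeR adjusted p = 0.208). For Aldh1a2 the difference was -0.04 ± 0.29, so the precision of 2 pools per age is low there.

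Ccl17 was found in a smaller share of neonatal than of adult gated cells. With every cell thinned to 2000 UMIs, Ccl17 was found in 42.6%, 43.3%, 68.5% and 62.3% of gated cells (46.3%, 45.3%, 79.7% and 82.6% unthinned). In cDC1 the thinned shares were 7.1%, 7.1%, 25% and 24.6%. In Epsti1-high cells they were 8.3%, 5.7%, 52.9% and 31.3%, the adult ones from 17 and 16 cells. The summed level did not share this direction. Its log2 difference was 0.26, with 0.59 for Epsti1 below 0.1%, 0.73 for 0 Epsti1 UMIs and -0.011 thinned, none called. Per thinned gated cell, the neonatal median was 0 UMIs in both pools and the adult medians were 2 and 1. The 90th percentiles overlapped, at 10.9, 16.0, 8.0 and 12.6 UMIs. Ccl22 was found in 72.1%, 66.4%, 79.5% and 75.4% of thinned gated cells, against 2.4% to 5.3% in cDC1. Fabp5 was found in 54.9%, 67.9%, 78.1% and 73.9% of thinned gated cells, and Aldh1a2 in 24.6%, 37.3%, 41.1% and 39.1%. Both adult shares lay above both neonatal shares for these genes too. How common such a gap is over all genes was not computed for shares of cells. Thinning left out 14, 16, 1 and 0 shallower cells.

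**Figure D3:**
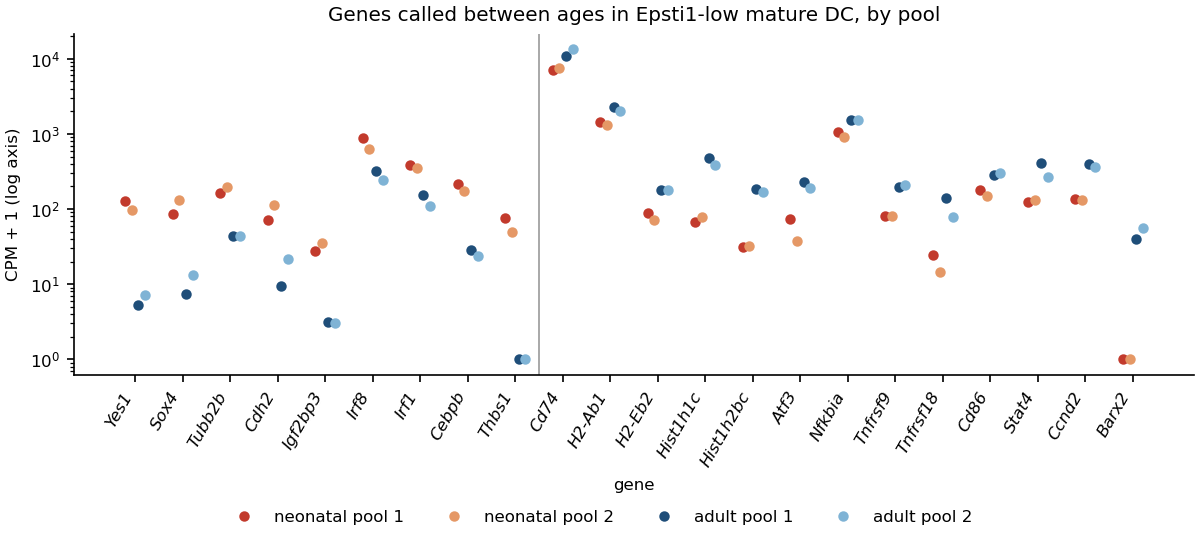
CPM + 1 on a log axis of 22 genes called between ages in Epsti1-low mature DC, 1 point per pool. Left of the line both neonatal points lie above both adult points, and right of it both adult points lie above both neonatal ones.

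Summed over the gate, genes of MHC class II presentation were lower in neonatal cells. Of 15 members tested, 9 were called higher in adult and 0 in neonatal cells, with a list median of -0.51 against 0.0035 for all genes. Cd74, the invariant chain that guides class II molecules to the endosome, stood at 6998, 7639, 10978 and 13367 CPM, a log2 difference of -0.88 ± 0.10 (edgeR adjusted p = 1.78e-05). H2-Ab1, the beta chain of I-A, stood at 1422, 1298, 2293 and 2019 CPM (-0.80 ± 0.10, adjusted p = 5.09e-05). H2-Eb1, the beta chain of I-E, stood at 2369, 2194, 3301 and 3721 CPM. The lysosomal reductase Ifi30, which opens disulfides of antigens, stood at 1284, 1159, 1832 and 1854 CPM. In CPM, both adult pools lay above both neonatal pools for each of these genes. Thinned shares of cells did not separate the ages for H2-Ab1. It was found in 43.4%, 42.5%, 42.5% and 52.2% of thinned gated cells (54.4%, 52.7%, 55.4% and 71.0% unthinned). In cDC1 the thinned shares were 99.8% to 100%. The median per thinned gated cell was 0, 0, 0 and 1 UMIs. The summed difference in H2-Ab1 therefore does not show a lower level in most neonatal cells. No other class II gene was examined by cell. H2-Eb2 (-1.31 ± 0.20) and the protease Lgmn (-1.06 ± 0.21) had the larger differences of the list, and H2-DMa, a peptide-exchange chaperone, went the other way at 0.63 without a call (adjusted p = 0.080). Without predicted doublets and cells with 3 or more UMIs of monocyte or macrophage markers, 8 of 14 members tested were called higher in adult, with a median of -0.73. With equal numbers of cells drawn per pool, the calls of Cd74 (-0.86, edgeR adjusted p = 0.118), H2-Ab1 (-0.78, 0.587), H2-Eb1 (-0.78, 0.363) and H2-Aa (-0.43, 0.494) were lost.

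The region before the start of class II genes carries a conserved array of boxes, of which the Y box, a reverse CCAAT, is bound by NF-Y as part of the platform for the coactivator CIITA. Because 9 of these genes were called lower in neonatal cells, the 120 bases before the start are shown for 3 called members (H2-Aa, H2-Eb1, H2-Eb2) and for 2 that were not called (H2-DMb1, H2-DMb2), from RefSeq on GRCm38.p6, 5′ to 3′ on the gene's strand. Capitals mark each CCAAT or its reverse complement ATTGG.
H2-Aa: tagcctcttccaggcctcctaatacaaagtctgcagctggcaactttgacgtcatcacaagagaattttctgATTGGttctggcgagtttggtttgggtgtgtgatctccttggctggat
H2-Eb1: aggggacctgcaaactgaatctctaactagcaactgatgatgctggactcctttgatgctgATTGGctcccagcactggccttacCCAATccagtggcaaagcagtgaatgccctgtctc
H2-Eb2: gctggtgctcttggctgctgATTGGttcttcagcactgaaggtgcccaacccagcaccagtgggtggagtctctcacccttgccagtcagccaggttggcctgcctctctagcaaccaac
H2-DMb1: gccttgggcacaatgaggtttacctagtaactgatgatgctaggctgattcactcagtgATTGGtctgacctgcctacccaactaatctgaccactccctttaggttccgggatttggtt
H2-DMb2: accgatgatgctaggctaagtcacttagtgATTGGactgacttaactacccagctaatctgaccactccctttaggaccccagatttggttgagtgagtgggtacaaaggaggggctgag

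They lie at chr17:34287824-34287943 (minus strand) for H2-Aa, chr17:34305747-34305866 for H2-Eb1, chr17:34325555-34325674 for H2-Eb2, chr17:34153071-34153190 for H2-DMb1 and chr17:34145129-34145248 for H2-DMb2, the last 4 on the plus strand. The ATTGG nearest to the start begins 48 bases before it in H2-Aa, 100 in H2-Eb2, 61 in H2-DMb1 and 90 in H2-DMb2, and H2-Eb1 has it at 59 and a CCAAT at 35 bases. Of the 15 members tested, 11 had an entry in the RefSeq table and 7 of these held the letters on either strand in at least 1 entry. Besides those shown, they were H2-Oa, which was not called, and Lgmn, called higher in adult cells. Lgmn also had an entry without the letters. Of all 32851 table entries, 21.29% held them in the same 120 bases. All sequences shown hold the letters, so they cannot tell whether called and uncalled members differ in them. Members without the letters are not shown. They were Ctss, Ifi30 and Cd63, called higher in adult cells, and H2-DMa, which was not called. A match is a description of the letters.

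The histone genes Hist1h1c and Hist1h2bc were higher in adult cells. Hist1h1c (chromosome 13, 23738808 to 23740367 on GRCm38), a linker histone expressed outside S phase as well, stood at 66.4, 76.7, 474 and 384 CPM. Its log2 difference was -2.71 ± 0.19 (edgeR adjusted p = 4.85e-08). Hist1h2bc, from the same chromosome 13 cluster, stood at 30.0, 31.5, 182 and 169 CPM (-2.64 ± 0.23). Both adult pools exceeded both neonatal pools by far for both genes, and both calls held with only cells without an Epsti1 UMI or with each cell thinned to 2000 UMIs.

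Of 30 immediate early and dissociation stress genes tested, 11 were called higher in adult and 1 in neonatal cells, with a median of -0.37 and 10 values above 0. Atf3, a stress-induced transcription factor, stood at 72.7, 37.0, 225 and 192 CPM (-2.08 ± 0.25). Ier2, an early response factor, stood at 91.7, 94.5, 255 and 196 CPM. Btg2, an antiproliferative factor, and Zfp36, which destabilises cytokine transcripts, differed by -1.19 ± 0.17 and -0.76 ± 0.12. The exception was the heat shock gene Hspa1a at 1.67 ± 0.49. These genes also react to tissue dissociation, whose part in the difference was not tested.

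NF-kB subunits and feedback genes were called higher in adult cells for 5 of 27 members tested and in neonatal cells for 1, with a median of -0.17. Nfkbia, the inhibitor that NF-kB induces against itself, stood at 1058, 911, 1547 and 1540 CPM (-0.79 ± 0.11, edgeR adjusted p = 0.000122). Relb stood at 587, 570, 765 and 793 CPM (-0.57 ± 0.12). Nfkb1, Birc2, which ubiquitinates signalling complexes of TNF receptors, and Tnip3 differed by -0.75, -0.75 and -0.98. Tnip1, an A20-binding inhibitor, was higher in neonatal cells at 1.15 ± 0.28, a call lost with equal numbers of cells per pool (0.90, edgeR adjusted p = 0.0984). The Relb call was lost without doublets and monocyte-marked cells (-0.41, edgeR adjusted p = 0.0621).

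Costimulatory and TNF receptor family genes differed gene by gene. Cd86, a ligand of CD28 and CTLA-4, stood at 180, 149, 283 and 304 CPM (-0.98 ± 0.18, edgeR adjusted p = 0.00118). Cd83, a maturation marker that stabilises MHC II and CD86 at the surface, was higher in adult cells at -0.52 ± 0.14. That call was lost without doublets and monocyte-marked cells (-0.35, adjusted p = 0.144). Slamf1, a self-binding costimulatory receptor, was higher in neonatal cells at 1.74 ± 0.53, and Cd40 overlapped between ages at 191, 184, 159 and 202 CPM. Tnfrsf9 (4-1BB) stood at 80.7, 79.4, 193 and 209 CPM (-1.47 ± 0.20). Tnfrsf18 (GITR) stood at 23.7, 13.7, 137 and 76.4 CPM (-2.65 ± 0.35). Over all genes tested, 5.56% were called higher in adult and 4.04% in neonatal cells. Of 10 costimulatory ligands tested, 2 were called higher in adult and 1 in neonatal cells, with a median of -0.11. Of 17 regulatory molecules tested, 2 were higher in adult and 0 in neonatal cells, the pair being Tnfrsf9 and Itgb8, an integrin chain that activates TGF-beta (-2.33 ± 0.53).

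Transcription factors and receptors added further adult-sided genes. Stat4, which relays IL-12 signals, stood at 125, 131, 407 and 266 CPM (-1.52 ± 0.20). Nr4a3, an orphan nuclear receptor linked to DC migration, stood at 362, 285, 566 and 539 CPM. Ccnd2, a D cyclin, stood at 134, 131, 396 and 359 CPM (-1.64 ± 0.17). The cytokine receptor chain Il7r differed by -1.14 ± 0.17, and the chemokine receptor Cxcr4 by -1.95 ± 0.34. Barx2, a homeobox factor (chromosome 9), had no UMI in neonatal gated cells and 45 in adult cells, at least 21.5-fold higher in adult against a floor of 3 counts over the neonatal cells. The chromatin remodeller Chd3 stood at 11.1, 2.74, 72.9 and 68.1 CPM (-3.51 ± 0.43). Timd4, a receptor for phosphatidylserine on dying cells, stood at 9.49, 4.11, 30.0 and 74.3 CPM (-3.09 ± 0.53).

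Ribosomal protein genes were called higher in adult cells for 30 of 57 tested and in neonatal cells for 0, with a median of -0.32. Over all genes tested, the shares called were 5.56% and 4.04%, beside which the lists of this paragraph stand. Rpl5 stood at 1403, 1467, 2238 and 2038 CPM (-0.71 ± 0.10). With Epsti1 below 0.1% the list fell to 1 call in each direction and a median of -0.04. The sterol enzymes Idi1 and Hmgcs1 were higher in adult cells at -1.29 ± 0.16 and -1.03 ± 0.21, and 3 of 20 sterol genes tested were called, none in neonatal cells. Oxidative phosphorylation had 2 of 67 genes called higher in adult cells and 0 in neonatal cells, with a median of -0.06, a share below that of all genes tested. Glycolysis had 1 of 12 and 0, with a median of 0.18 and 10 values above 0. For MHC class I presentation, 5 of 24 were higher in adult cells and 0 in neonatal cells. Among these, H2-D1 differed by -0.59 ± 0.10.

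**Figure D4:**
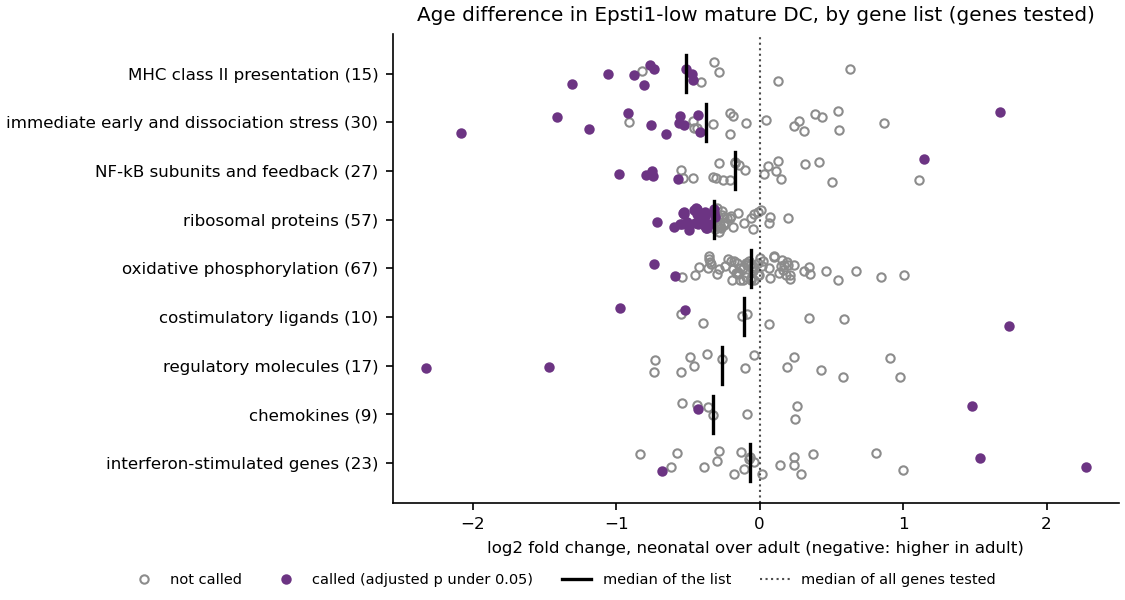
Log2 fold change between ages (x axis) of each tested gene of 9 lists, filled where called, with the list's median as a bar and the median of all genes tested dotted. Class II genes have the median farthest to the adult side, at -0.51.

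Yes1, Sox4, Tubb2b and Cdh2 were higher in neonatal cells, the last 3 of them picked after their values were seen. On the lists, 1 of 24 migration and cytoskeleton genes tested was called higher in neonatal and 6 in adult cells, and 1 of 3 growth genes of fetal tissue in neonatal cells. Yes1, a kinase of the Src family (chromosome 5), stood at 127, 97.2, 4.29 and 6.19 CPM, a log2 difference of 4.21 ± 0.41 (edgeR adjusted p = 3.89e-06). Sox4, a transcription factor of progenitor cells, stood at 83.8, 130, 6.43 and 12.4 CPM (3.34 ± 0.40). Tubb2b, a tubulin of migrating neurons, stood at 161, 197, 42.9 and 43.4 CPM, and the adhesion molecule N-cadherin (Cdh2) at 71.2, 114, 8.57 and 20.6 CPM. Neonatal pools lay above adult pools for each of these genes. Igf2bp3, an RNA-binding protein of fetal tissue, had 42 neonatal and 2 adult UMIs, a ratio of levels of 14.7 (95% counting interval 3.81 to 125). Cdk5r1, an activator of the kinase CDK5, had 86 and 3 UMIs, a ratio of 20.01 (6.62 to 98.9). The calls of Yes1, Sox4, Tubb2b and Cdh2 held without doublets and monocyte-marked cells and with Epsti1 below 0.1%.

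Irf8, Irf1 and Il4ra were higher in neonatal cells, and their differences changed with the Epsti1 limit. Irf8, the lineage factor of type 1 DC, stood at 892, 636, 317 and 246 CPM (1.30 ± 0.17, edgeR adjusted p = 6.32e-05). Irf1, an interferon-induced factor, stood at 389, 349, 152 and 107 CPM (1.37 ± 0.19), and Il4ra, the receptor chain shared by IL-4 and IL-13, at 232, 182, 92.2 and 82.6 CPM (1.10 ± 0.21). In cells with 0 Epsti1 UMIs the values did not lie in this direction. There Irf8 stood at 333, 240, 326 and 286 CPM and differed by -0.076, Irf1 by -0.73 and Il4ra by -0.11, none of them called (58 of 2391 genes were, 2.43%, with 0.962% higher in neonatal and 1.46% in adult cells). With Epsti1 below 0.1%, Irf8 stayed called at 0.77, while Irf1 (0.59, edgeR adjusted p = 0.143) and Il4ra (0.30, adjusted p = 0.594) did not. Epsti1, which the rule uses, stood at 865, 688, 364 and 448 CPM. Of 23 other interferon-stimulated genes tested, 2 were higher in neonatal and 1 in adult cells, with a median of -0.06 and 10 values above 0. Among them Ly6e had the larger difference, at 2.27 ± 0.31.

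**Figure D5:**
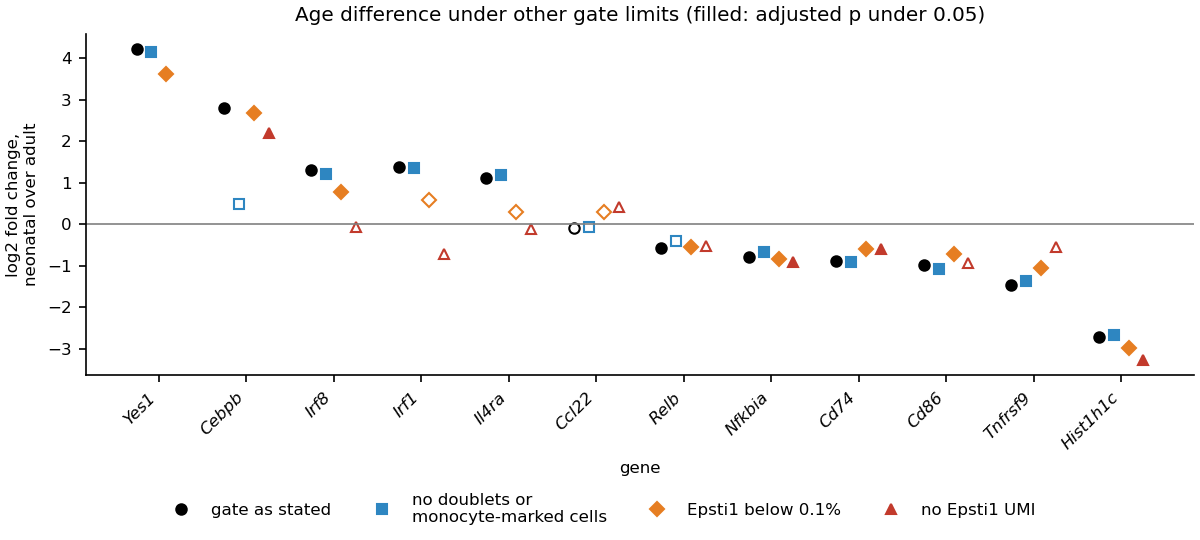
Log2 fold change between ages of 12 genes under the stated gate and 3 other gates, filled where the adjusted p is under 0.05. Irf8, Irf1 and Il4ra move from above 1 to below 0 as the Epsti1 limit tightens, while Hist1h1c stays near -3.

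Genes of monocytes were higher in neonatal cells and were carried by few cells. Of 6 classical monocyte markers tested, 4 were called higher in neonatal and 0 in adult cells. Their list of 11 markers summed to 623, 394, 55.7 and 70.2 CPM. Thbs1, a matrix glycoprotein of activated monocytes, had 82 neonatal UMIs and none in adult cells. That is 19.1-fold higher against 3 counts over the adult cells, with a lower end of the 95% counting interval of 15.2-fold. Its pattern was not particular to this gate. Thbs1 was found in 10.3%, 8.0%, 0% and 0% of gated cells. The shares were 5.1%, 4.6%, 0% and 0% of Epsti1-high cells, and 5.6%, 5.7%, 0.56% and 0% of cDC1. Hp, haptoglobin, had 83 and 2 UMIs, a ratio of 29.0 (95% counting interval 7.77 to 243). The chemokine receptor Ccr2 stood at 42.7, 67.1, 6.43 and 4.13 CPM. Cebpb, a factor of monocyte and macrophage fate, stood at 217, 171, 27.9 and 22.7 CPM (2.79 ± 0.26, edgeR adjusted p = 2.70e-06). Cells with 3 or more UMIs of classical monocyte or macrophage markers numbered 18, 20, 5 and 6, and all 18 predicted doublets were among them. Since the cells were picked on monocyte markers, their removal lowers those markers by construction. Without these cells the Cebpb difference was 0.49 (adjusted p = 0.482), and Thbs1, Hp, Ms4a6d, Itgal, Ace, Lpl and Pilra no longer had enough UMIs to be tested, while Plac8, the 1 classical monocyte marker then tested, was called higher in neonatal cells at 4.29. Macrophage markers summed to 144, 430, 60.01 and 76.4 CPM. Neutrophil markers summed to 209, 2138, 101 and 107 CPM, with neonatal pool 2 apart. Of its 150 gated cells, 14 held 3 or more neutrophil marker UMIs and 1 held 10 or more. Most of the pool's 1561 neutrophil marker UMIs therefore lay in 1 cell.

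That removal left most other calls in place. Of the 218 neonatal-sided calls, 185 were still tested and 156 called the same way, and of the 300 adult-sided calls, 293 were tested and 238 called the same way. In all, 490 of 4848 genes were called (10.1%), 218 higher in neonatal (4.5%) and 272 in adult cells (5.61%). With Epsti1 below 0.1%, 227 of 4382 genes were called (5.18%, with 1.76% higher in neonatal and 3.42% in adult cells), and all 180 neonatal-sided and 289 adult-sided calls that were still tested kept their sign, with 61 and 135 of them called the same way. With 0 Epsti1 UMIs, 65 of 86 neonatal-sided and 195 of 249 adult-sided calls still tested kept their sign. In the whole gate, cDC1 markers summed to 1520, 1115, 778 and 679 CPM, with Irf8 and Naaa called higher in neonatal cells, and cDC2 markers to 346, 563, 236 and 194 CPM, with Sirpa, Itgam and Ccr2 called the same way. Without doublets and monocyte-marked cells, 1 of 3 cDC1 markers (Irf8) and 1 of 4 cDC2 markers tested (Sirpa) were called, and the cDC2 median moved from 0.94 to -0.17.

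Within pools, Ccl17, Fabp5 and Aldh1a2 stood higher in Epsti1-low than in Epsti1-high cells, and Ccl5 stood lower. This contrast is the one the rule cuts, so its values are a description. Ccl17 was 1964, 2861, 1618 and 2036 CPM in Epsti1-low cells against 168, 54.8, 1150 and 281 CPM in Epsti1-high cells. Fabp5 in Epsti1-high cells was 235, 212, 517 and 1019 CPM, and Aldh1a2 was 38.2, 53.4, 131 and 168 CPM, both under the Epsti1-low level in the same pool. Pkib, an inhibitor of protein kinase A, and Il2ra, the alpha chain of the IL-2 receptor, had mean log2 differences of 3.19 and 2.88 over the pools. On the other side, Asprv1, a retroviral-like protease, Plaat3, a phospholipase, and Dnase1l3, a nuclease that clears extracellular DNA, had mean differences of -3.26, -2.49 and -1.93. The chemokine Ccl5 was 5744, 6965, 4872 and 4875 CPM in Epsti1-low and 13349, 14731, 16018 and 20436 CPM in Epsti1-high cells. The whole chemokine list summed to 12032, 14254, 10798 and 11676 CPM in Epsti1-low and to 15843, 16808, 20921 and 23090 CPM in Epsti1-high cells.

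Whether the age difference itself differed between both states was tested with an interaction term, blocking on pool. Called were 137 of 5999 genes (2.28%), 66 with a larger (1.1%) and 71 with a smaller value (1.18%) in Epsti1-low cells. Of the 518 genes called between ages in Epsti1-low cells, 43 had a called difference. Most age calls were thus not shown to be particular to Epsti1-low cells. The test recovered 28% of simulated 4-fold changes, so a missing call does not show an equal age effect. Both states were cut on Epsti1, and the cut fell differently by age. The median Epsti1 share was 0.088%, 0.060%, 0% and 0.018% in Epsti1-low cells and 0.44%, 0.48%, 0.34% and 0.33% in Epsti1-high cells. A gene that tracks Epsti1 can therefore give a called difference, and the part of the cut in these calls was not tested. S100a4, a calcium-binding protein of motile cells, stood at 927, 1248, 1813 and 2591 CPM in Epsti1-low cells and at 108, 84.2, 1479 and 2542 CPM in Epsti1-high cells. Its age difference was -1.16 in the first and -4.54 in the second, a difference of 3.30 ± 0.24 (edgeR adjusted p = 4.01e-19). Fxyd2, a regulator of the sodium pump, differed likewise by 3.17 ± 0.35. Aldh1a2 showed -0.04 in Epsti1-low and -1.88 in Epsti1-high cells, a difference of 1.74 ± 0.35 (adjusted p = 0.000887). Fabp5 gave a difference of 1.75 ± 0.25. For these 4 genes the neonatal Epsti1-high cells had low levels that neonatal Epsti1-low cells did not share. Cd86 gave -1.67 ± 0.41, with adult Epsti1-high cells at 98.6 and 24.1 CPM. Without neonatal pool 2 the calls fell to 2, S100a4 and Fxyd2, and without neonatal pool 1 to 54. Adult Epsti1-high sums rest on 17 and 16 cells.

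Against cDC1-gated cells, 217 of 7835 genes had a called difference of the age effect (2.77%), 139 larger (1.77%) and 78 smaller (0.996%) in Epsti1-low mature DC. Without adult pool 1 or 2, 131 and 109 were called. Hist1h2bc was level between ages in cDC1 at 37.3, 41.9, 35.1 and 43.2 CPM, and its difference of the age effects was -2.61 ± 0.30 (edgeR adjusted p = 6.29e-05). Hist1h1c gave -1.91 ± 0.24, with 104, 95.2, 149 and 183 CPM in cDC1. Irf8 was 2210, 2292, 1773 and 1815 CPM in cDC1, an age difference of 0.24 there, and the difference of 1.04 ± 0.17 was called (adjusted p = 0.00316). Ltb4r1, a leukotriene B4 receptor, was 30.6, 38.3, 224 and 212 CPM in cDC1 but 15.8, 35.6, 4.29 and 2.06 CPM in Epsti1-low cells, giving 5.60 ± 0.57. The Irf8 call was lost without either adult pool, at adjusted p = 0.148 and 0.192, and the Ltb4r1, Hist1h1c and Hist1h2bc calls held without each pool in turn. For Cd74 and H2-Ab1, the age effects of -0.88 and -0.80 stood beside -0.70 and -0.50 in cDC1, and their difference was not called (adjusted p = 0.373 and 0.0773).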

How the data were processed

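One deposited matrix of raw UMI counts, per the file headers, was read (14710 barcodes, 32285 genes, 2 hashtags, and 0 sample columns unused). The submitters' processing notes name Cell Ranger 6.1.2, the mm10 build and Seurat 4.2.0. Pools were taken from the barcode suffix, per the labels. GENCODE M21 (GRCm38) held 32158 of the gene identifiers. Gene UMIs of whole pools came to 20346024, 19549992, 8993471 and 8172362.

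The replicate was the pool: UMIs of gated cells were summed in each. After filterByExpr and TMM scaling, edgeR 4.0.16 (R 4.3.3) was run with its robust quasi-likelihood fit, and genes with a Benjamini-Hochberg adjusted p under 0.05 were called. Standard errors were derived from the fold change and its F statistic. Interactions blocked on pool. Shares were compared by exact permutation. Intervals (95%) and floors (3 counts) cover counting error only. Scrublet predictions of doublets were made per channel, and such cells stayed in unless stated. Python 3.11.15 with scanpy 1.11.5, scipy 1.17.1, numpy 2.4.6, matplotlib 3.10.9 and pandas 2.3.3 served the other steps.

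The gate, lists, markers and tests were chosen with earlier results of these data known. The rule for named genes takes the 10 largest called changes each way whose ages do not overlap and whose higher age reaches 20 CPM, leaving out uncharacterised genes and those for globins, sex chromosomes and antigen receptors. It adds up to 4 members per list by smallest p, the markers, Zbtb46, the 5 largest called differences each way per interaction, and the 10 largest differences each way between states with at least 50 CPM in the higher one. A part of these is printed, and 1 gene that the rule names is not reported here. Cd40, H2-Aa, H2-Eb2, Nfkb1, Sox4, Tubb2b, Cdh2, Irf1, Lgmn, Tnip1, Hspa1a, H2-DMa, H2-DMb1 and H2-DMb2, for the interactions Aldh1a2, Fabp5, Cd86, Irf8, Hist1h1c, Cd74 and H2-Ab1, the state value of Ccl5, and Plac8 were chosen after their values were seen. So were the cell shares of Mgl2 and Cd209a.

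On simulated counts with 200 changed genes, the age test (5399 genes) recovered 20% at 1.5-fold, 36% at 2-fold, 94% at 4-fold and 94% at 8-fold. The state interaction (5999 genes) recovered 0%, 0%, 28% and 64%, and the class interaction (7835 genes) 0%, 4%, 32% and 54%. Alternatives were DESeq2 1.42.0, its size factors, other low-count filters, other Epsti1 and Fscn1 limits, doublets left out, stricter cell limits, thinning, equal cell numbers, a replicate block, leaving out each pool and, added after seeing the data, leaving out monocyte-marked cells.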

Additional observations from a re-analysis of the deposited data

Results flagged for a closer look

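Several genes had an age difference in Epsti1-low cells that differed by edgeR's interaction test from that in another class of the same pools, and they are given as values. Against Epsti1-high cells, the difference of the log2 age effects was 4.80 for Hp, 3.93 for the cell cycle inhibitor Cdkn2a, 3.30 for S100a4, 3.17 for Fxyd2 and 2.94 for the endosomal glycoprotein Cd68. In Cdkn2a, Epsti1-low cells stood at 7.91, 23.3, 66.4 and 61.9 CPM and Epsti1-high cells at 0.64, 2.05, 131 and 64.2 CPM. The Hp value rests on adult Epsti1-high levels of 8.21 and 40.1 CPM and was no longer called without adult pool 2 (2.27) or without either neonatal pool. On the other side were Cars (-8.40), Cd37 (-8.04), Pde3b (-7.97), Strn4 (-7.91) and Cisd2 (-3.96). The first 4 of these had 0 UMIs in both adult Epsti1-high sums, so their fitted values depend on the prior count and are no bounds. Each of those 4 lost its call without neonatal pool 2 and without each adult pool.

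Against cDC1-gated cells, the difference was 8.10 for Mast4, 7.89 for Tifab, 7.65 for Hdac9 and 5.60 for Ltb4r1. Mast4, Tifab and Hdac9 had 0 UMIs in both adult Epsti1-low sums, so these fitted values are no bounds either. Tifab stood at 23.7 and 15.1 CPM in neonatal Epsti1-low cells, against 42.7, 43.8, 37.1 and 44.2 CPM in cDC1, and its call was lost without predicted doublets, with thinned cells and without adult pool 2. The negative side held Hebp1 (-4.28), Hist1h2bc (-2.61), Hist1h2ae (-2.41), Ints3 (-2.31) and Hist1h2ap (-2.03). In cDC1, Hist1h2ap stood at 204, 126, 33.8 and 89.4 CPM, while Ints3, a subunit of the integrator complex, stood at 16.5, 16.9, 16.6 and 7.86 CPM there against 23.7, 23.3, 90.015 and 76.4 CPM in Epsti1-low cells.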

How the results depend on the processing

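The number of genes called between ages (518) moved to 780 with pool number as a replicate block, 227 with Epsti1 below 0.1%, 58 with 0 Epsti1 UMIs, 231 with cells thinned to 2000 UMIs and 216 with DESeq2, and ranged from 0 to 510 when 1 pool was left out, with 0 without either neonatal pool. Under the other 9 alternatives it lay between 413 and 634. The pool numbers did not pair the samples: deviations of pools numbered 1 correlated at 0.0475 across genes. Thinning and tighter Epsti1 limits leave fewer cells, UMIs and genes to test. The 137 state differences moved to 40 with thinned cells and ranged from 2 to 197 without 1 pool. The 217 class differences moved to 92 with thinned cells and ranged from 109 to 268. The neonatal minus adult share of kept barcodes (-0.49 percentage points) moved to -1.05 with 0 Epsti1 UMIs, -1.23 below 0.1%, -0.75 with 4 or more Fscn1 UMIs and -1.21 thinned, and ranged from -0.64 to -0.34 without 1 pool. The share of mature DC (-51.6) moved to -31.1 with 0 Epsti1 UMIs and -54.5 thinned, and ranged from -53.3 to -49.8 without 1 pool.

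Signs turned for genes not called between ages: Ccl22 to 0.42 (0 Epsti1 UMIs), 0.30 (below 0.1%) and 0.073 (no doublets); Ccl17 to -0.011 (thinned); Cd40 to 0.011 (below 0.1%) and 0.11 (Fscn1 at least 4). Aldh1a2 turned to 0.75 (0 Epsti1 UMIs), 0.37 (below 0.1%), 0.020 (Fscn1 at least 4), 0.13 (no doublets), 0.0088 (stricter cell limits), 0.11 (equal cells) and 0.12 (no monocyte-marked cells). Fabp5 turned to 0.74, 0.41, 0.021 and 0.063 under the first 4 of these and to 0.073 without monocyte-marked cells. Without 1 pool, Ccl22 ranged from -0.25 to 0.037, Ccl17 from -0.046 to 0.51, Aldh1a2 from -0.59 to 0.35, Fabp5 from -0.44 to 0.30 and Cd40 from -0.30 to 0.10. With 0 Epsti1 UMIs, 65 of 86 neonatal-sided and 195 of 249 adult-sided calls still tested kept their sign. Among the genes named, those that turned were Irf8 (-0.076), Irf1 (-0.73), Il4ra (-0.11), Fxyd2 (0.038) and Rpl9 (0.025), where the cause was not tested.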
